A study of Mus musculus with 20 samples.

Results

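P2ry12, P2ry13 and Gpr34 encode 3 receptors that are enriched in microglia, the resident macrophages of the brain. Each was represented by 1 probe set annotated to that symbol alone (1431724_a_at for P2ry12, 1428700_at for P2ry13 and 1422542_at for Gpr34), so the members were 3 of 18193 genes with such a probe set, among 45101 probe sets on the arrays. They were followed in motor cortex and sensory cortex of 10 female C57Bl6 mice, which gave 20 arrays, 1 for each region of each mouse. The 6 mice with experimental autoimmune encephalomyelitis (EAE, a model of multiple sclerosis) received, at 8 to 12 weeks of age, a myelin oligodendrocyte glycoprotein peptide under the skin, with 100 µg given in the rear flanks and a further 50 µg into the tail base. Pertussis toxin, 400 ng a dose, was given on days 0 and 3. Their average clinical grades were 2.50 to 3.50, with 1 or both hindlimbs paralysed, and the labels give both day 21 and days 18 to 21 for the time of collection. The 4 healthy mice of the same age shared their cages, and no injection is described for them, so disease and immunisation cannot be told apart. Cohorts 1 and 2 each held 3 EAE and 2 healthy mice. The tissue was cortex dissected from slices of 1 mm, with all its cell types.

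P2ry12 and P2ry13 are receptors for ADP, and Gpr34 is a receptor for lysophosphatidylserine, a lipid released from cell membranes. All belong to the P2Y12-like branch of G protein-coupled receptors and signal through inhibitory (Gi) G proteins. P2ry12 lets ramified microglia sense nucleotides leaking from injured cells and extend their processes towards them, and its loss from microglia is a familiar sign that they have left the resting, or homeostatic, state. Outside the brain P2ry12 is best known on platelets.

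The RefSeq gene order of assembly GRCm38.p6 places P2ry12 and P2ry13 side by side on chromosome 3, both inside Med12l, a gene for a Mediator subunit, and near the related receptor genes P2ry14 and Gpr171. Gpr34 lies on chromosome X inside Cask, next to Gpr82. Because the neighbours P2ry12 and P2ry13 are compared below, their promoters are shown as RefSeq gives them for GRCm38.p6, from 250 bases before the gene's start to 50 bases after it, at chr3:59262936-59263235 for P2ry12 and chr3:59210833-59211132 for P2ry13, both on the minus strand and written 5′ to 3′ along the gene. Capitals mark a match to GAGGAAG, the core letters of the binding motif of PU.1, a myeloid transcription factor.
P2ry12: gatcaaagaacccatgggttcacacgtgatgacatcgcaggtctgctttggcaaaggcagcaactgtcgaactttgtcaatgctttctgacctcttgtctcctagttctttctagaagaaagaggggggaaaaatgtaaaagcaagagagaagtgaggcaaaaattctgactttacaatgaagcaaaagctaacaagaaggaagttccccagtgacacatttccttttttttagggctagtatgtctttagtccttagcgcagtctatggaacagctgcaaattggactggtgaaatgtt
P2ry13: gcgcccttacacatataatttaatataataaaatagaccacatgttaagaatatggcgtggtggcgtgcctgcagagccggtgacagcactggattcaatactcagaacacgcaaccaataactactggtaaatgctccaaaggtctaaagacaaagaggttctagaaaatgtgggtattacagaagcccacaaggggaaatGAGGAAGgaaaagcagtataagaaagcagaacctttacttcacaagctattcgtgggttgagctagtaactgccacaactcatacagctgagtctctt
The P2ry13 window held that match at positions -48 to -42 from the start and the P2ry12 window held none, against 13.6% of 32851 promoter windows. On either strand, neither window held the SMAD letters CAGACA, found in 21.0% of windows, or the AP-1 letters TGANTCA, found in 7.81%. Neither held a match to the longer motifs searched for MEF2 (3.69% of windows), interferon regulatory factors (3.44%), the ETS-IRF composite (2.72%) or the glucocorticoid receptor (0.475%). A match is a run of letters, and binding was not measured.

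Values are log2 expression as deposited. Medians of the arrays ran from 8.22 to 8.32, and within groups any pair of arrays had a correlation of 0.988 to 0.998 over all probe sets. The 7 measured cortical neuron genes, such as the glutamate transporter gene Slc17a7, were present at a mean of 12.8 to 13.2 on every array, and the 14 measured homeostatic microglia genes other than the members at a mean of 10.1 to 10.4. By the chip processing dates in the labels, 18 arrays were run on 1 day, and the motor array of healthy mouse 4 and the sensory array of healthy mouse 1 on another. Precision is limited by the number of mice.

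In motor cortex all 3 receptors were lower in EAE mice than in healthy mice, P2ry12 at 51.0%, P2ry13 at 67.6% and Gpr34 at 43.8% of the healthy level, and each passed the limma test over 45037 probe sets, where 0.551% were called lower. Within each receptor no EAE value reached the lowest healthy value, a separation in that direction that 2.99% of probe sets showed. In bulk tissue, fewer microglia and less RNA per cell cannot be told apart.

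P2ry12 in motor cortex ran from 9.53 to 10.14 with a median of 9.96 in the 6 EAE mice, against 10.79, 10.99, 10.74 and 10.95 in healthy mice 1 to 4. The highest EAE mouse was 0.60 below the lowest healthy mouse. P2ry12 fell by 0.97 ± 0.11 on the log2 scale (SE), with a limma adjusted p of 0.00431, and ranked 9th among 45037 probe sets for the size of its fall. P2ry13 ran from 8.42 to 8.75 with a median of 8.61 in EAE mice, against 9.32, 9.43, 8.92 and 9.05 in healthy mice. Its gap between the groups was the narrowest of the receptors, at 0.17. P2ry13 fell by 0.57 ± 0.10 (SE, log2), with a limma adjusted p of 0.0226. Gpr34 ran from 7.32 to 8.10 with a median of 7.73 in EAE mice, against 8.84, 9.08, 8.84 and 8.79 in healthy mice. The groups were separated by 0.69, and most healthy mice lay within a narrow band. Gpr34 fell by 1.19 ± 0.12 (SE, log2), with a limma adjusted p of 0.00158, the third largest fall on the arrays.

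**Figure D1:**
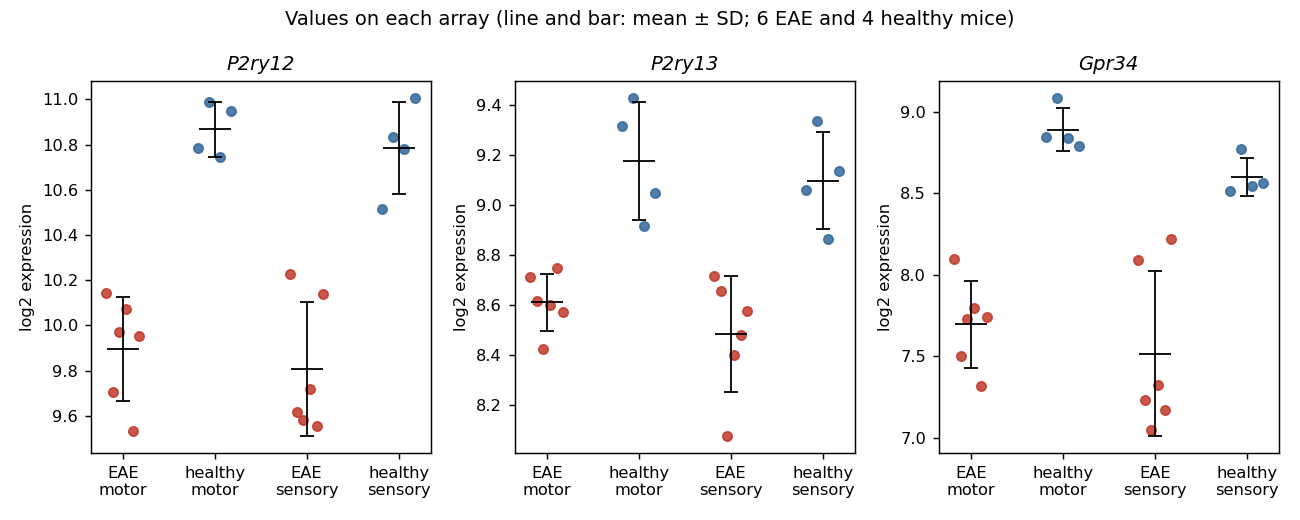
Log2 expression of each receptor on every array (y axis), by region and condition (x axis), with 1 point per mouse and the mean ± SD of 6 EAE and 4 healthy mice. In each region the EAE points lie below the healthy points, and sensory cortex holds 2 EAE mice above the other EAE mice for P2ry12 and Gpr34.

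Within the cohorts, P2ry12 and Gpr34 in motor cortex gave nearly equal differences, and P2ry13 gave unequal ones, although the difference between cohorts was not tested. P2ry12 stood at -0.95 in cohort 1 and -0.996 in cohort 2, and Gpr34 at -1.19 and -1.20. P2ry13 stood at -0.79 in cohort 1 and -0.34 in cohort 2, where its healthy mice were the lower ones. With 3 EAE and 2 healthy mice a cohort, no receptor passed limma within one, at adjusted p from 0.0743 to 0.288. P2ry12 and Gpr34 passed whichever mouse was left out, while P2ry13 lost the call without EAE mouse 2 (adjusted p 0.0553 by limma) or healthy mouse 1, 2 or 4 (limma adjusted p 0.108, 0.0799 and 0.0642).

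The second comparison repeated the contrast in sensory cortex. The receptors stood at 50.8%, 65.4% and 47.2% of the healthy level for P2ry12, P2ry13 and Gpr34, and again no EAE value reached the lowest healthy one, as held for 2.93% of probe sets. Only P2ry12 passed limma over all probe sets, where 0.346% were called lower.

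P2ry12 in sensory cortex ran from 9.55 to 10.23 with a median of 9.67 in EAE mice, against 10.52, 10.83, 10.78 and 11.01 in healthy mice 1 to 4. EAE mice 1 and 6, at 10.23 and 10.14, stood apart from the other EAE mice, which reached at most 9.72. P2ry12 fell by 0.98 ± 0.16 (SE, log2), with a limma adjusted p of 0.0358, and the call was lost without any 1 of 8 mice, with limma adjusted p up to 0.164, and held without EAE mouse 1 or 3. P2ry13 ran from 8.08 to 8.72 with a median of 8.53 in EAE mice, against 9.06, 9.34, 8.86 and 9.14 in healthy mice. EAE mouse 3 was the lowest. P2ry13 stood at -0.61 ± 0.13 (SE, log2) with a limma adjusted p of 0.0654. Gpr34 ran from 7.05 to 8.22 with a median of 7.28 in EAE mice, against 8.51, 8.77, 8.54 and 8.56 in healthy mice. EAE mice 6 and 1 were again highest, at 8.22 and 8.09, and the SD was 0.51 in EAE mice against 0.12 in healthy mice. Gpr34 stood at -1.08 ± 0.23 (SE, log2) with a limma adjusted p of 0.0693, although its difference ranked 4th among the falls. Tested with 1 probe set per gene in place of all probe sets, P2ry13 and Gpr34 passed at limma adjusted p of 0.0389 and 0.0451. Leaving out EAE mouse 1 brought P2ry13 and Gpr34 past the threshold (limma adjusted p 0.0357 and 0.022), as did leaving out EAE mouse 3 for P2ry13 (0.0306). Within cohorts 1 and 2, P2ry12 stood at -0.87 and -1.09, P2ry13 at -0.71 and -0.51, and Gpr34 at -1.18 and -0.98, with no call in either.

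When the 2 arrays of each mouse were averaged, all 3 receptors were lower in EAE mice and passed limma, against a background of 2.62% called lower. No EAE mouse reached the lowest healthy mouse, which held for 5.07% of probe sets. P2ry12 averaged 9.85 ± 0.24 in EAE mice (SD, n = 6) and 10.83 ± 0.15 in healthy mice (SD, n = 4), with a limma adjusted p of 0.00558. P2ry13 averaged 8.55 ± 0.16 and Gpr34 7.61 ± 0.35 in EAE mice (SD, n = 6), against 9.14 ± 0.20 and 8.74 ± 0.12 in healthy mice (SD, n = 4). Their limma adjusted p were 0.0147 and 0.00762. Without healthy mouse 1, 2 or 4 the P2ry13 call was lost at limma adjusted p of 0.0512, 0.0503 and 0.0592. Without healthy mice 1 and 4 together, which have the arrays of the second processing day, all 3 calls were lost at limma adjusted p of 0.142, 0.206 and 0.148 for P2ry12, P2ry13 and Gpr34, with differences of -0.99, -0.59 and -1.20. That day held only healthy arrays, and the fit keeps only healthy mice 2 and 3. Processing day and the smaller number of healthy mice therefore cannot be told apart.

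The next question was whether the receptors differed between the cortical areas. For P2ry12 and P2ry13 the order of group means was EAE sensory, EAE motor, healthy sensory and healthy motor, from 9.81, 9.90, 10.78 and 10.87 for P2ry12 and from 8.49, 8.61, 9.10 and 9.18 for P2ry13, and the 2 regions of a condition did not differ beyond their spread. Gpr34 kept the same order, at 7.52, 7.70, 8.60 and 8.89, and its EAE regions overlapped, while healthy motor cortex (8.79 to 9.08) and healthy sensory cortex (8.51 to 8.77) just did not, as 4.35% of probe sets showed in that direction. Within healthy mice the region difference of Gpr34 did not pass limma (adjusted p 0.412), against 1.77% of probe sets called. Motor minus sensory was above 0 for Gpr34 in 5 of 6 EAE mice and in 4 of 4 healthy mice, where it ran from 0.23 to 0.33. Over all 10 mice it was 0.24 ± 0.09 for Gpr34, 0.10 ± 0.05 for P2ry13 and 0.09 ± 0.06 for P2ry12 (SE, log2). None passed limma, at adjusted p of 0.141, 0.316 and 0.507, against 7.05% of probe sets called, and Gpr34 passed without EAE mouse 6 (limma adjusted p 0.0193).

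**Figure D2:**
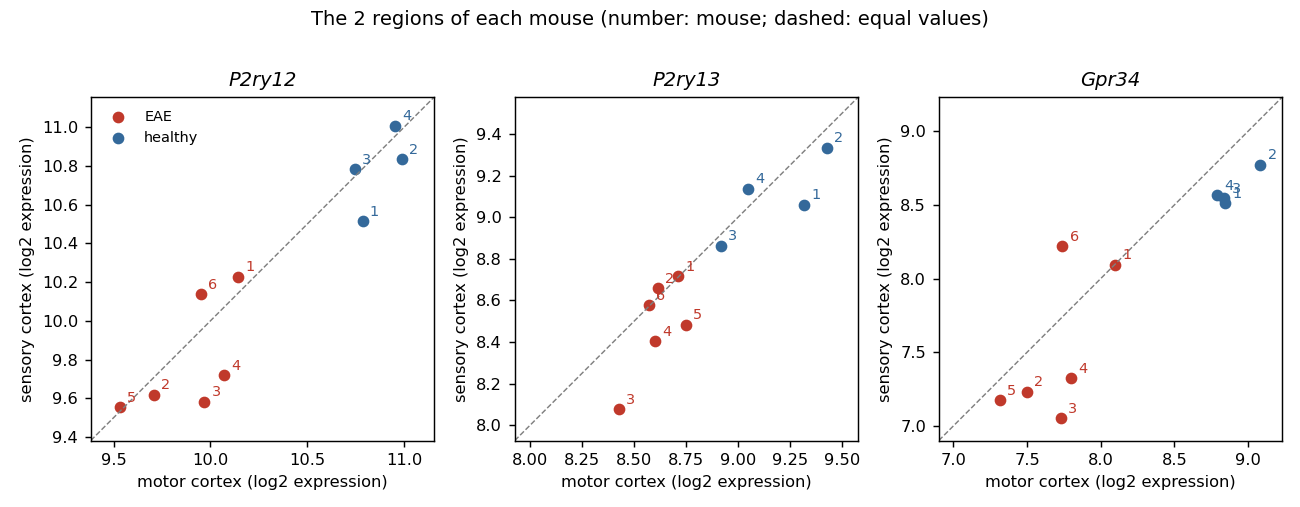
Sensory cortex (y axis) against motor cortex (x axis) of each mouse in log2 expression, with the mouse number beside its point and a dashed line at equal values. EAE mouse 6 lies above the line for P2ry12 and Gpr34, EAE mouse 3 lies below it for all 3 receptors, and healthy mice stay at the upper right.

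The difference between EAE and healthy mice was not shown to depend on the area. The EAE difference in motor minus that in sensory cortex was 0.01 for P2ry12 (95% interval -0.26 to 0.27), 0.05 for P2ry13 (-0.18 to 0.27) and -0.11 for Gpr34 (-0.48 to 0.27). No probe set passed limma for this contrast and 991 of 45037 had an unadjusted p under 0.05. For Gpr34 the mice that departed most from equal regions were EAE mice 3 and 6. In EAE mouse 3 Gpr34 was 7.73 in motor and 7.05 in sensory cortex, and in EAE mouse 6 it was 7.74 in motor and 8.22 in sensory cortex, so these arrays went opposite ways.

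Among the EAE mice the receptors were set against the average clinical grade, with the 2 arrays of a mouse averaged. P2ry12 changed by -0.26 ± 0.20 per grade, P2ry13 by 0.05 ± 0.16 and Gpr34 by -0.23 ± 0.30 (SE, log2, 6 mice), with limma adjusted p of 0.633, 0.927 and 0.788. Grades overlapped with cohort, and with cohort as a covariate the slopes were -0.57 ± 0.33, 0.04 ± 0.28 and -0.57 ± 0.52. The intervals without the covariate, such as -0.71 to 0.20 for P2ry12, span a wide range of slopes. In either fit limma called 0 of 45037 probe sets, with 5371 and 2615 at an unadjusted p under 0.05.

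The receptors were then placed among other microglial genes, with each gene on its brightest probe set. Of 14 measured homeostatic microglia genes other than the members, 1 fell and 2 rose in motor cortex, 0 fell and 2 rose in sensory cortex, and 2 fell and 2 rose in the mean of both regions. Over all probe sets 0.171%, 0.231% and 0.759% were called higher in these comparisons. The list's median differences were -0.16, -0.07 and -0.12, against medians of 0.00 over all probe sets in each comparison. Tgfbr1, a receptor for the growth factor TGF-beta that maintains microglial identity, fell by 0.46 ± 0.06 in motor cortex (SE, log2, limma adjusted p 0.00931), and Siglech, a sialic acid-binding lectin of microglia, fell by 0.36 ± 0.08 in the mean of both regions (limma adjusted p 0.0463). Without healthy mouse 1 the motor call of Tgfbr1 was lost (limma adjusted p 0.0549), whereas in the mean of both regions its call held whichever mouse was left out. The Siglech call held only without EAE mouse 1 or 6 and was otherwise lost (limma adjusted p up to 0.152). Sparc, a matrix-associated glycoprotein that endothelial cells also make, rose by 0.46 ± 0.08 in motor and 0.60 ± 0.07 in sensory cortex. Crybb1, a crystallin gene that microglia express, rose by 0.51 ± 0.10 in motor and 0.59 ± 0.09 in sensory cortex. In the mean of both regions the Sparc call held without any 1 mouse, and that of Crybb1 was lost without healthy mouse 3 or 4 (limma adjusted p up to 0.0577). In single regions Sparc held in 4 of 10 motor and 5 of 10 sensory fits that each left out 1 mouse, and Crybb1 in 2 and 3 of 10. Fcrls, an Fc receptor-like scavenger receptor gene, had a difference as large as that of P2ry12, at -1.02 ± 0.26 in the mean of both regions, but its EAE mice varied more (9.62 ± 0.58, SD, n = 6, against 10.64 ± 0.02 in healthy mice, SD, n = 4) and it did not pass, at a limma adjusted p of 0.0569. Cx3cr1, the fractalkine receptor, stood at -0.64 ± 0.17 (limma adjusted p 0.0727) on its brightest probe set, and its other probe set fell by 0.48 ± 0.10 (limma adjusted p 0.0303). Tmem119, a microglial membrane protein of unclear function, stood at -0.19 ± 0.05, the colony-stimulating factor receptor Csf1r at -0.14 ± 0.07 and the microglial transcription factor gene Sall1 at -0.07 ± 0.05, all short of the threshold.

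Genes that mark myeloid cells in general mostly had higher means in EAE mice, few of them past the threshold. Of 16 measured pan-myeloid genes, 12 had higher means in EAE motor cortex and 14 in EAE sensory cortex, with medians of 0.14 and 0.40. Only Ctss, a lysosomal protease gene, was called, in sensory cortex and in the mean of both regions, where it rose by 0.55 ± 0.11 (SE, log2, limma adjusted p 0.023) and lost the call without any 1 healthy mouse (limma adjusted p up to 0.0902). Its sensory call held in 3 of 10 fits that each left out 1 mouse (limma adjusted p up to 0.162). Aif1, the gene of the microglial marker Iba1, stood at 0.22 ± 0.19, and the integrin gene Itgam, the gene of CD11b, at -0.41 ± 0.10 (limma adjusted p 0.0557). Among 14 genes of disease-associated microglia, the integrin gene Itgax rose by 0.37 ± 0.07 and the lipase gene Lpl fell by 0.50 ± 0.10 in the mean of both regions, and 12 did not pass. Both calls were lost without healthy mouse 1, 2 or 4 (limma adjusted p up to 0.07 for Itgax and 0.0817 for Lpl).

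**Figure D3:**
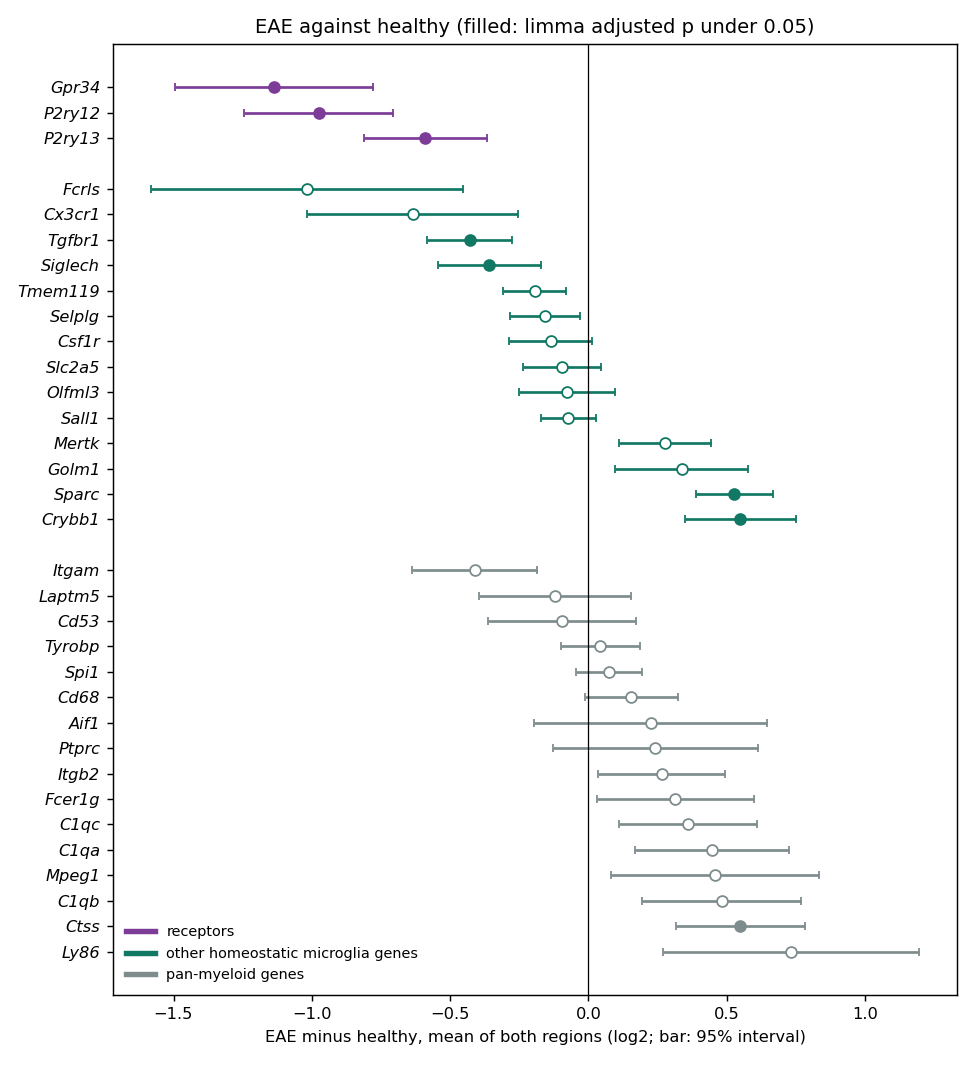
EAE minus healthy in the mean of both regions (x axis, log2, with 95% intervals) for the 3 receptors, 14 other homeostatic microglia genes and 16 pan-myeloid genes, with filled symbols at a limma adjusted p under 0.05. The receptors, Fcrls and Cx3cr1 lie furthest to the left, between -1.14 and -0.59, while homeostatic genes stand on both sides of 0 and 13 of the pan-myeloid genes stand above it.

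To set each receptor beside its cell type list, the mean of the 14 other homeostatic genes was subtracted from its value in each mouse. P2ry12 minus that mean was -0.29 ± 0.23 in EAE (SD, n = 6) and 0.55 ± 0.09 in healthy motor cortex (SD, n = 4), a difference of -0.84. The differences were -0.43 for P2ry13 and -1.06 for Gpr34 in motor cortex. In sensory cortex they were -0.90, -0.54 and -1.01 for P2ry12, P2ry13 and Gpr34. All 6 EAE mice were below the lowest healthy mouse each time, as held after the same subtraction for 0.449% of probe sets in motor cortex, 0.842% in sensory cortex and 0.924% in the mean of both regions. The exact two-sided permutation p, unadjusted over the 9 tests run with the mean of both regions included, was 0.00476, the smallest that 210 splits of the mice can give, in each of these tests except that of Gpr34 in sensory cortex, where it was 0.00952. The list mean itself was 10.18 in EAE and 10.29 in healthy mice in the mean of both regions. In motor cortex its groups were also apart, at 10.14 to 10.27 in EAE and 10.29 to 10.36 in healthy mice. In sensory cortex they overlapped. Of the 14 list genes in motor cortex, 6 had every EAE value below every healthy value, against 2.99% of probe sets, and 2 had every EAE value above. The receptors' groups were already apart before the subtraction, so the permutation p are not separate support. The members and the list were chosen with earlier results known, and the list holds genes that rose, so the differences describe unequal change within an array.

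**Figure D4:**
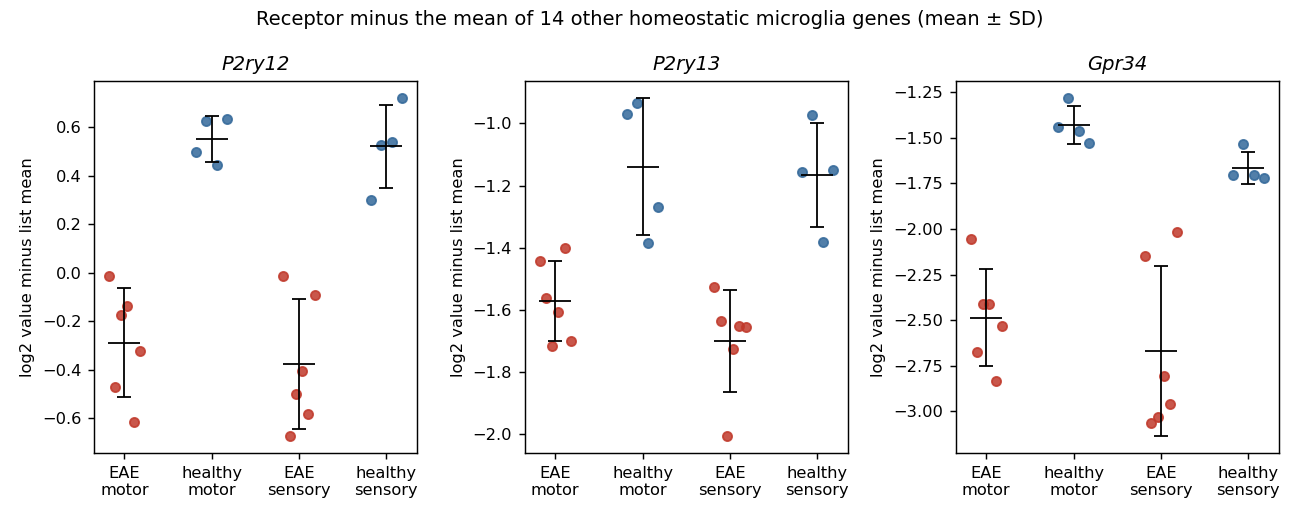
Each receptor's log2 value minus the mean of 14 other homeostatic microglia genes on the same array (y axis), by region and condition (x axis), with 1 point per mouse and mean ± SD. For P2ry12 in motor cortex the EAE mean is -0.29 and the healthy mean 0.55, and no EAE point reaches a healthy point in any panel.

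Markers of other cells that could carry these receptors or enter the tissue were read beside them. The mean of 8 platelet genes was 7.57 to 7.81 in EAE and 7.62 to 7.75 in healthy motor cortex, and 7.56 to 7.82 and 7.57 to 7.74 in EAE and healthy sensory cortex. Of these genes Gp1bb, a platelet glycoprotein subunit, fell by 0.36 ± 0.05 in the mean of both regions, whichever mouse was left out, and its other probe set stood at 0.04. Its calls in single regions held in 1 of 10 motor and 2 of 10 sensory fits without 1 mouse (limma adjusted p up to 0.164 and 0.187). The mean of 8 border macrophage genes was 7.51 to 7.72 in EAE and 7.52 to 7.61 in healthy motor cortex, and 7.64 to 7.90 and 7.41 to 7.62 in EAE and healthy sensory cortex, where the mannose receptor gene Mrc1 was the one called gene, and was called in 2 of 10 fits that each left out 1 mouse. The mean of 8 monocyte and neutrophil genes was higher in every EAE mouse, at 7.29 to 7.69 in EAE and 6.71 to 6.86 in healthy motor cortex, and at 7.10 to 8.14 and 6.68 to 6.82 in EAE and healthy sensory cortex. Its calprotectin genes S100a8 and S100a9, the granule protein gene Ngp and the coagulation factor gene F13a1 rose in the mean of both regions. S100a8, at 1.77 ± 0.21 (SE, log2), held its call without any 1 mouse, F13a1 in 8, S100a9 in 4 and Ngp in 2 of 10 such fits. In motor cortex S100a8, S100a9 and Ngp rose, and the calls of S100a8 and S100a9 held in 10 of 10 such fits and that of Ngp in 9, lost without healthy mouse 3 (limma adjusted p 0.0558). In sensory cortex limma called 0 of the 8 genes, where 0.231% of probe sets were called higher. No marker is at 0 on this scale, no detection calls were used here, and the part of these cells in the receptors' differences was not tested.

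None of the 8 measured relatives and genomic neighbours was called in any comparison of EAE with healthy mice, by limma over all probe sets. Among all probe sets at most 2.62% were called lower and 0.759% higher, both in the mean of both regions. At these shares, no call among so few genes does not set them apart from probe sets in general. Gpr82 was not measured by a probe set of its own symbol. Med12l, which holds P2ry12 and P2ry13, stood at -0.05 ± 0.05 in the mean of both regions, P2ry14 at 0.09 ± 0.05 and Gpr171 at 0.02 ± 0.05 (SE, log2), while Cask, which holds Gpr34, stood at -0.20 ± 0.06 with a limma adjusted p of 0.0945. Of 12 other purine receptors, P2rx7, an ATP-gated channel, fell by 0.21 ± 0.05 in the mean of both regions (limma adjusted p 0.0366), a call that held in 2 of 10 fits without 1 mouse. Its other probe sets stood at -0.34 and 0.09, and neither passed. P2ry6, a receptor for UDP that is linked to phagocytosis, stood at 0.12 ± 0.07, the ATP-gated channel P2rx4 at -0.09 ± 0.06 and the adenosine receptor Adora3 at -0.02 ± 0.08.

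Enzymes that set the ligands' levels gave few calls. None of 12 genes of nucleotide release and breakdown was called on its brightest probe set. Among all probe sets 2.62% were called lower and 0.759% higher in the mean of both regions, and fewer in each region. Entpd1, which removes phosphate from ATP and ADP, stood at -0.06 ± 0.07 there, and another of its probe sets fell by 0.22 ± 0.05 (limma adjusted p 0.0346). Nt5e, which makes adenosine from AMP, stood at 0.11 ± 0.08. Of 7 genes for enzymes of lysophosphatidylserine and its parent lipid, Pla1a, a phospholipase that releases lysophosphatidylserine, rose by 0.55 ± 0.06 in sensory cortex (SE, log2, limma adjusted p 0.0119) and by 0.47 ± 0.05 in the mean of both regions (limma adjusted p 0.00532). Pla1a averaged 8.39 ± 0.07 in EAE sensory cortex (SD, n = 6) and 7.83 ± 0.12 in healthy sensory cortex (SD, n = 4), with no overlap, as 1.67% of probe sets showed in that direction. The sensory call was lost without EAE mouse 5 or healthy mouse 1, 3 or 4 (limma adjusted p up to 0.0696), and the call in the mean of both regions held whichever mouse was left out. In the mean of both regions the acyltransferase gene Mboat1 fell by 0.24 ± 0.06 (limma adjusted p 0.0463), and its other probe set stood at 0.05. Its call held in 2 of 10 fits without 1 mouse. Of 21 genes of Gi-coupled signalling 0 were called in either region, where at most 0.551% of probe sets were called lower and 0.231% higher. In the mean of both regions Gnb2, a G protein beta subunit gene, and Rgs10, which shortens Gi signals and is abundant in microglia, fell by 0.20 ± 0.04 and fell by 0.26 ± 0.06, and the GTPase gene Rac2 rose by 0.25 ± 0.05. These calls held in 2, 1 and 3 of 10 fits without 1 mouse, for Gnb2, Rgs10 and Rac2. Kcnk13, the potassium channel that acts with P2ry12 in microglia, stood at -0.14 ± 0.07 and Gnai2, a Gi alpha subunit gene, at 0.01 ± 0.06. None of 14 listed genes of microglial transcription and TGF-beta signalling was called, against the same shares of probe sets. That list leaves out the TGF-beta receptor gene Tgfbr1, counted above with the homeostatic genes, which fell in motor cortex and in the mean of both regions.

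Last, likeness between the receptors was described by Pearson's r across arrays, which share mice in pairs. Over the 20 arrays, among 18192 other genes, Gpr34 was the gene most like P2ry12 and P2ry12 the gene most like Gpr34, at r = 0.97, a value that includes the difference between EAE and healthy mice. After the mean of its own group was taken from each value they again ranked 1 for each other, at r = 0.88. P2ry13 was less like either: the deviations gave r = 0.31 with P2ry12 and r = 0.45 with Gpr34, at ranks of 3883 and 1609. With any 1 mouse left out, r of the deviations was 0.82 to 0.94 for P2ry12 and Gpr34 (rank 1 to 12 of Gpr34 for P2ry12, 12 without EAE mouse 1), 0.14 to 0.46 for P2ry12 and P2ry13, and 0.32 to 0.57 for P2ry13 and Gpr34.

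**Figure D5:**
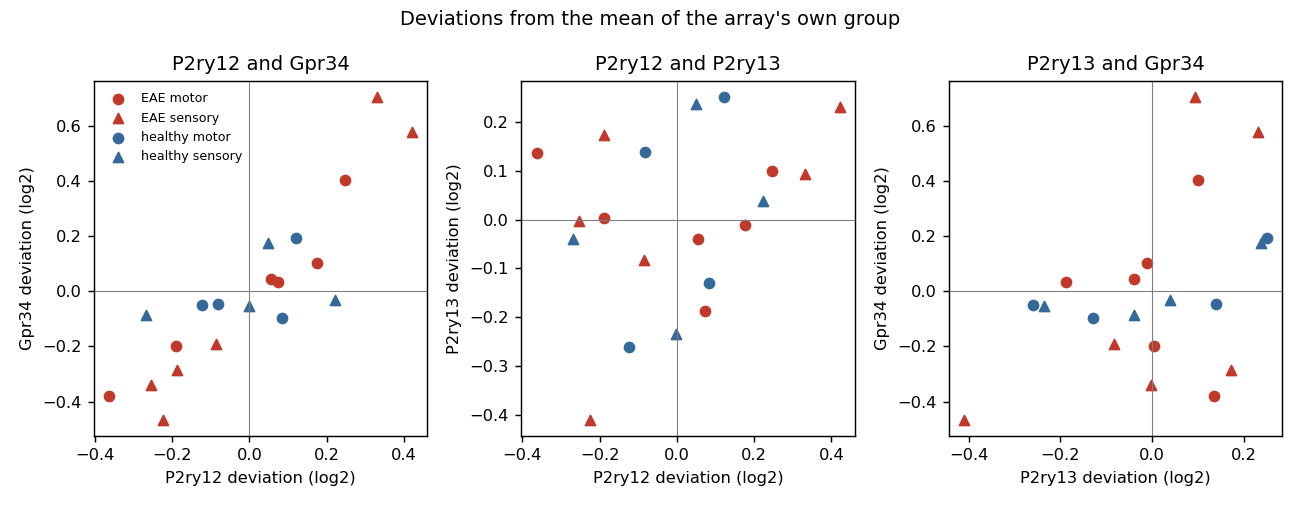
Deviation of each array from the mean of its own group in log2 for pairs of receptors (axes name the receptor), with 20 arrays in each panel, circles for motor and triangles for sensory cortex. P2ry12 and Gpr34 vary together (r = 0.88), and the panels with P2ry13 are more scattered (r = 0.31 and 0.45).

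Other genes near the top differed between the receptors. Over the values, P2ry12 was followed after Gpr34 by Lrrc75a, Hpgd, Hpcal1 and Gm21953 (r from 0.95 to 0.97). Gpr34 was followed after P2ry12 by Hpcal1, Mob3b, Tet1 and Lrrc75a (0.94 to 0.95), and P2ry13 by Tgfbr1, Rasgrp3, Asap1, Fam107b and Fabp7 (0.91 to 0.93). These r include the difference between EAE and healthy mice. In the mean of both regions all of these genes were called lower in EAE mice, against 2.62% of probe sets, with Fabp7 at -1.05 ± 0.12 (SE, log2). They were picked by r over the same arrays, which largely sets that outcome, so these calls are not separate support. Over the deviations, P2ry12 was followed after Gpr34 by Gm36365, Gdf10, Hpgd and B4galt2 (0.83 to 0.87), Gpr34 after P2ry12 by Vit, Mob3b, Car2 and Pcdh11x (0.85 to 0.87), and P2ry13 by Zfp943, Zfp518a, Fam107b, Zfp709 and Casp1 (0.82 to 0.87). Of the homeostatic genes, Fcrls had r of the deviations of 0.81 with P2ry12, 0.78 with Gpr34 and 0.06 with P2ry13. Tgfbr1 had 0.34, 0.60 and 0.73 with the same receptors. Other genes of that list had negative r of the deviations with P2ry12 and Gpr34. These were -0.61 and -0.76 for Mertk, -0.47 and -0.41 for Crybb1, and -0.43 and -0.31 for Sparc. Golm1 had -0.35 with both, and Sall1 had -0.24 and -0.41, so the list as a whole did not vary with these receptors.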

How the data were processed

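Gene expression was measured on Affymetrix arrays from 1 µg of biotin-labelled total RNA per region and mouse. The deposited values are log2 expression per probe set. RMA makes the distributions of arrays alike, and it and Partek appear in the submitters' processing notes. Versions of both are not given in the sources used here, and scanner files were not analysed. The 64 control probe sets were left out, which left 45037. Symbols are those of GEO's platform annotation, checked through Entrez identifiers against RefSeq (GRCm38.p6): of the probe sets, 34945 carried 1 symbol (34741 of them matched), 932 carried several and 9160 had no entry. List genes used the probe set with the highest mean among those with that single symbol, and 149 of 164 entries in 13 lists were measured.

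Groups were taken from the labels. Differences were fitted per region with limma 3.58.1 in R 4.3.3 (two-sided, cohort as a covariate) over all 45037 probe sets, with Benjamini-Hochberg adjustment and calls at an adjusted p under 0.05. Differences are EAE minus healthy with moderated SE, and region tests used each mouse's motor minus sensory value. Each printed adjusted p is from limma. The labels' animal numbers tie the motor and sensory array of a mouse, whose deviations from group means correlated at -0.06 to 0.59. No 2 arrays held identical values. The cohort-adjusted fits of EAE against healthy mice were first tested on simulated data with known changes. The region and grade fits and the permutation test were not. The simulated noise was independent between probe sets and mice and held no processing day, so noise shared between probe sets was not covered. The alternatives were the cohort covariate, quantile normalization, filters, cohorts, processing day, blocks and each mouse left out.

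The members and lists were chosen with earlier results of these data known. The genes named are the members, the 5 most alike genes per member and measure, up to 4 called genes per list and a fixed set. Other list members named, such as Fcrls and Cask, were chosen after their values were seen.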

Additional observations from a re-analysis of the deposited data

Results flagged for a closer look

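Of 42 sets of 4 or 6 values examined, 2 held a value far from the rest of its group. Chance alone gives such a value in about 5% of sets, so these 2 are about as many as chance would give. Both belong to Gpr34 in healthy mouse 2. Its mean of both regions was 8.93 on the log2 scale, with the other 3 healthy mice between 8.68 and 8.69, so that the gap was 0.946 of the range of the 4 healthy mice. Its Gpr34 value minus the mean of the 14 other homeostatic microglia genes in sensory cortex was -1.54, and the gap was 0.894 of the range of the 4 healthy mice. Healthy mouse 2 was the highest healthy mouse in both cases, further from the EAE mice. Without it the Gpr34 difference in the mean of both regions was -1.08, and the call held (limma adjusted p 0.032).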

How the results depend on the processing

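Each difference of P2ry12, P2ry13 and Gpr34 between EAE and healthy mice kept its direction in motor cortex, in sensory cortex and in the mean of both regions under all alternatives run, and calls changed with which mice were left out and which features were tested. The mean of Gpr34 over all arrays was below the median of the probe sets, so the filter at that median gave no value for it. Neither dropping the cohort covariate nor quantile normalization changed a call of a receptor.

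Within cohort 1 no call remained. In motor cortex P2ry12 stood at -0.95, P2ry13 at -0.79 and Gpr34 at -1.19, with 3 probe sets called lower and 2 higher. In sensory cortex P2ry12 stood at -0.87, with 0 lower and 0 higher. In the mean of both regions the receptors stood at -0.91, -0.75 and -1.19, with 0 lower and 0 higher. Within cohort 2, motor cortex gave -0.996, -0.34 and -1.20, with 4 lower and 12 higher. Sensory cortex gave -1.09 for P2ry12, with 3 lower and 12 higher. The mean of both regions gave -0.43 for P2ry13 and -1.09 for Gpr34, with 139 lower and 107 higher, and there P2ry12 kept its call.

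Without the second processing day, P2ry13 in motor cortex (-0.59, limma adjusted p 0.0642, 63 lower and 26 higher) and P2ry12 in sensory cortex (-1.07, limma adjusted p 0.0713, 1 lower and 6 higher) lost their calls. In the mean of both regions the receptors stood at -0.99, -0.59 and -1.20, with 1 lower and 4 higher. With 1 probe set per gene, P2ry13 (-0.61) and Gpr34 (-1.08) passed in sensory cortex, with 274 lower and 164 higher. With only the probe sets above their median mean, P2ry13 passed there (-0.61, limma adjusted p 0.0313, 830 lower and 282 higher), and 1801 were lower in the mean of both regions.

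Equal mouse numbers in the labels mark different animals in EAE and healthy mice. With that number as a replicate block, P2ry12 in sensory cortex stood at -0.997 (limma adjusted p 0.267, 0 lower and 6 higher), and the mean of both regions had 248 lower and 84 higher. With the mouse of 20 arrays as a random block there were 2193 lower and 784 higher. No other call of a receptor changed under these blocks.

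With 1 mouse left out at a time, the differences ran from -0.64 to -0.49 for P2ry13 in motor cortex, and in sensory cortex from -1.08 to -0.91 for P2ry12, -0.69 to -0.51 for P2ry13 and -1.24 to -0.98 for Gpr34. P2ry13 ran from -0.67 to -0.51 in the mean of both regions. Gpr34 in motor minus sensory cortex ran from 0.19 to 0.30. The EAE difference in motor minus that in sensory cortex, never called, changed sign, from -0.0715 to 0.0627 for P2ry12, -0.00781 to 0.107 for P2ry13 and -0.20 to 0.0197 for Gpr34. Probe sets called lower ran from 19 to 288 in motor cortex, 0 to 1035 in sensory cortex and 241 to 1640 in the mean of both regions, and those called higher from 15 to 126, 6 to 340 and 69 to 597. Other homeostatic genes called lower ran from 0 to 1 in each region and from 1 to 4 in the mean, and over the other alternatives from 0 to 3 in motor cortex, 0 to 1 in sensory cortex and 0 to 5 in the mean.

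The likeness values kept their direction under 11, added after the data were seen. The cause of the changes was not tested.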
